A study of Mus musculus with 9 samples.

Results

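The comparison sets RNA that sank with several ribosomes in a sucrose gradient against total RNA in LSK cells, the population that the labels call stem cells, and asks which classes of RNA and which messages were carried by many ribosomes. It rests on 4 of the 9 libraries of the series, 2 of LSK total RNA and 2 of LSK polysomal RNA, and on all 16426 gene names, of 47480 in the count table, that passed a filter on low counts. A message that is being translated carries several ribosomes at once and sinks deep into a gradient. RNAs that stay in the nucleus, and small RNAs that guide other RNAs or build the splicing machinery, carry none and stay near the top. Stem cells of the blood are known for a low rate of protein synthesis, so how their messages are shared out among ribosomes has been of interest.

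All groups came from primary blood-forming cells of C57BL/6 mice, held in 100 ug/ml cycloheximide, which locks ribosomes in place, for 10 min before lysis. Some lysate was set aside as total RNA and the rest was spun through a gradient of 10 to 60% sucrose, of whose 10 fractions number 7 alone was sequenced as polysomal. The MP libraries, of cells labelled as progenitors, were 2 of total and 3 of polysomal RNA from the same strain and treatment. The labels give no age, sort gates or number of animals, and nothing in them ties a library to an animal of its own, so p-values measure the spread between libraries, which may be technical. A single fraction stands for all polysomes, so a message that sank into another fraction counts as depleted here.

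The 4 LSK libraries held between 27342343 and 30260450 counts. A count was seen for 23657 and 23160 gene names in the total libraries and for 19088 and 17199 in the polysomal libraries. Replicates were loosely alike: log2 levels correlated across genes at 0.892 between the total libraries and at 0.885 between the polysomal libraries, below the 0.95 of total 1 with polysomal 1. The labelled cell type had its defining genes: Ly6a, which encodes Sca-1, stood at 50.2 and 77.4 CPM (counts scaled to a common library size) in total 1 and 2 and at 72.1 and 109.5 CPM in polysomal 1 and 2. Where pairs of levels are joined by "against", the first pair is total 1 and 2 and the second is polysomal 1 and 2. Kit, the receptor for stem cell factor, stood at 1409 and 330.2 against 1595 and 508 CPM, and Hlf, a stem cell transcription factor, at 171 and 176 against 179 and 127 CPM. Summed counts of immunoglobulin genes differed more by library number than by fraction, with 0.0923% and 0.768% of all counts in total 1 and 2 and 0.108% and 0.503% in polysomal 1 and 2. The single gene Ighg1, described with the higher genes, differed by fraction too. LSK polysomal 2 stood apart in base composition, as described with the trend by GC content.

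No gene passed an adjusted p of 0.05 in edgeR's quasi-likelihood test of LSK polysomal over total RNA (0 of 16426, percent called 0), and the smallest adjusted p was 0.212. This test did not pair total with polysomal libraries. With the library number as a block, edgeR called 0 genes over all 9 libraries and 254 in the 4 LSK libraries alone (17 higher, 237 lower). Before adjustment 1981 genes (12.1%) had a p under 0.05, where 821 would be expected with no difference, and 1397 of them were lower in polysomal RNA (8.5%) against 584 higher (3.56%). In 2657 genes (16.2%) both polysomal libraries lay above both total libraries, and in 3380 genes (20.6%) both lay below. These shares are the background for the counts by class, and a gene is called separate where its groups do not overlap. Levels are scaled with edgeR's TMM factors, which set most genes near 0, with a median log2 fold change of 0.02 over all genes. With library totals as the only scaling that median was -0.36, and 1492 genes were separate and higher and 4660 lower. DESeq2 on the same genes called 37 higher (0.227% of 16318) and 396 lower (2.43%). Of the 396 lower genes, 107 were protein-coding, 121 were long noncoding RNAs and 120 were of the class TEC, which GENCODE gives to unverified, mostly unspliced transcripts. Of the 37 higher genes, 34 were protein-coding. Limma on the authors' normalized values called 8 higher (0.0487%) and 478 lower (2.91%), and 193 of the lower genes were TEC, 152 long noncoding and 72 protein-coding. With 2 libraries a group, an exact permutation test of a single value cannot go below p = 0.33.

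Small RNAs were scarce in polysomal RNA. Small nucleolar RNAs (snoRNAs) guide the chemical modification of ribosomal RNA in the nucleolus, where C/D snoRNAs direct methylation and H/ACA snoRNAs direct pseudouridylation. Most are cut out of the introns of other genes. Shown are 3 snoRNAs whose boxes place them in these classes, so that the RNA counted can be seen beside its host gene: Snord73a is among the snoRNA genes with the smallest p, and Snora31 and Snord49b were chosen after their values were seen. Capitals mark the C box TGATGA and the D box CTGA in the C/D snoRNAs, and the H box ANANNA and the terminal ACA in the H/ACA snoRNA, on the RNA strand, from GENCODE M21 transcripts on GRCm38.
Snora31: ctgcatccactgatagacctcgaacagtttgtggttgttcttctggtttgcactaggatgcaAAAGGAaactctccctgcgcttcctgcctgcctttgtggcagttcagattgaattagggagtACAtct
Snord73a: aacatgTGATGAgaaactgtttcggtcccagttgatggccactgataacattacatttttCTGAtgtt
Snord49b: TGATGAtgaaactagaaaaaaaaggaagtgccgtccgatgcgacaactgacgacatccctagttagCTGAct
Snora31 (130 bases, chr14:75847905-75848034, plus strand) lies in an intron of Tpt1, Snord73a (68 bases, chr3:86138791-86138858, minus strand) in an intron of Rps3a1 and Snord49b (72 bases, chr11:62603079-62603150, plus strand) in an intron of the noncoding host 2410006H16Rik. By the same letters, 20.7% of 1483 annotated snoRNA genes had C and D boxes in place and 17.7% had a terminal ACA, so most annotated models had neither pattern. The C box was searched in the first 20 bases, the D box in the last 20, the H box at more than 40 bases from either end and the ACA with 3 bases after it, all on the strand of the gene only.

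Over all 1464 snoRNA genes of the table, counts numbered 3025 in total 1, 2838 in total 2, 418 in polysomal 1 and 105 in polysomal 2. As shares of the library these were 0.0104% (exact 95% interval 0.0101 to 0.0108) and 0.00938% (0.00904 to 0.00973) in total RNA and 0.00145% (0.00132 to 0.0016) and 0.000384% (0.000314 to 0.000465) in polysomal RNA, intervals that cover counting error only. The mean share was 0.00991% ± 0.000753 in total and 0.000918% ± 0.000755 in polysomal RNA (SD, n = 2), 10.8 times higher in total RNA, and the groups did not overlap. The ratio was 25.8 without polysomal 1 and 6.83 without polysomal 2. In MP the shares were 0.00471% to 0.0055% in total RNA and 0.00122% to 0.00143% in polysomal RNA, again without overlap. Snora31 stood at 3.73 and 3.74 CPM in total RNA and at 0.598 and 0.0831 CPM in polysomal RNA, while its host Tpt1 stood at 125 and 427 against 116 and 165 CPM. Snord73a stood at 0.875 and 0.723 CPM in total RNA and had no count in either polysomal library, and its host Rps3a1 stood at 828 and 1176 against 935 and 491 CPM. Snord49b stood at 1.02 and 0.499 CPM in total and 0.0332 and 0.0831 CPM in polysomal RNA, inside the noncoding host 2410006H16Rik at 61.7 and 76.7 against 29.9 and 32.1 CPM. All 3 snoRNAs were lower in both polysomal libraries than in either total library, whereas the 2 coding host messages overlapped between the groups and only the noncoding host was also separate. The log2 fold change of Snora31 was -3.42 (SE 0.99, adjusted p = 0.231 by edgeR, 0.0243 by DESeq2). Of the 57 snoRNA genes that passed the filter, 52 lay lower in both polysomal libraries and 0 higher. Since many of them could pass only through the total libraries, the 32 that passed in the MP libraries alone are the better count, and 30 of these lay lower and 0 higher, where the share lower among all genes so chosen was 17.9%.

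Small nuclear RNAs, which form the core of the spliceosome, went the same way. Their share was 0.00303% and 0.00399% in total RNA and 0.000597% and 0.000157% in polysomal RNA, 9.31 times higher in total RNA with no overlap. The ratio was 22.3 without polysomal 1 and 5.88 without polysomal 2. Small Cajal body RNAs, which guide modification of the spliceosomal RNAs, numbered 107 and 142 counts in total RNA and 23 and 5 in polysomal RNA. These RNAs are short or have no poly(A) tail, so their shares compare libraries and do not give amounts in the cell. Counts of a snoRNA and of the unspliced intron that carries it cannot be told apart in a table of counts per gene.

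**Figure D1:**
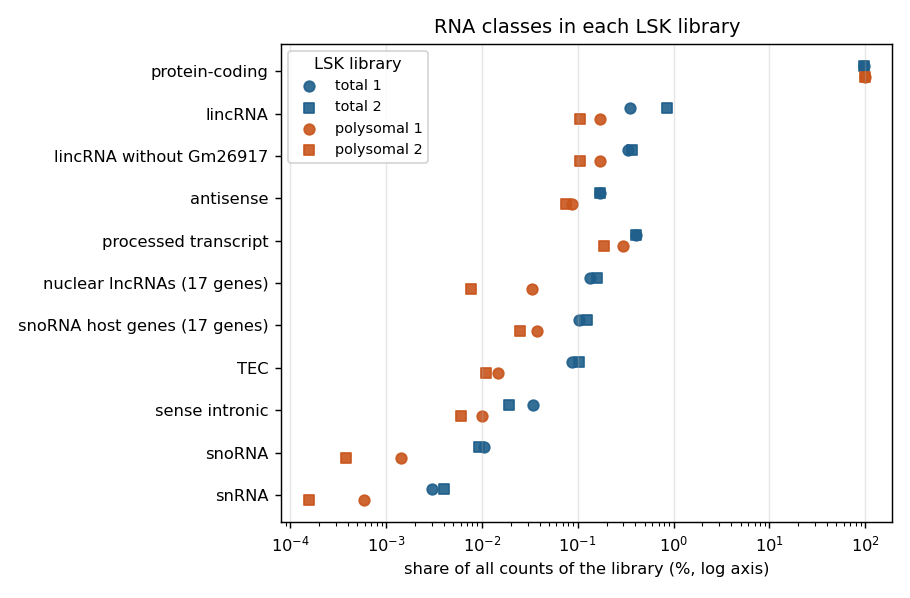
Share of all counts of each LSK library (percent, log axis) taken by classes of RNA, with total libraries in blue and polysomal libraries in orange, circles for library 1 and squares for library 2. Every class but protein-coding lies lower in both polysomal libraries than in either total library, and by the ratio of means snoRNAs differ most among those shown, from 0.0104% and 0.00938% to 0.00145% and 0.000384%.

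Long noncoding RNAs that stay in the nucleus were also lower in polysomal RNA. The list of 17 nuclear long noncoding RNAs holds RNAs that act on chromatin or in nuclear bodies. Together they took 0.134% and 0.16% of counts in total RNA and 0.0331% and 0.00763% in polysomal RNA, 7.22 times higher in total RNA on the means. Without polysomal 1 the ratio was 19.3, and without polysomal 2 it was 4.44. Malat1 (chr19:5795690-5802672), an abundant RNA of nuclear speckles, stood at 679 and 978 CPM in total RNA and at 183 and 13.5 CPM in polysomal RNA. Both polysomal values lay below both total values, by very different amounts. Its log2 fold change was -3.07 (SE 0.98, adjusted p = 0.256 by edgeR, 0.0442 by DESeq2). Kcnq1ot1, a long antisense RNA that silences an imprinted region, stood at 45.2 and 102 CPM in total and at 8.5 and 1.7 CPM in polysomal RNA, and DESeq2 called it (adjusted p = 0.00269). Firre, which anchors chromatin regions, stood at 104 and 20.2 CPM in total and 3.85 and 2.33 CPM in polysomal RNA (log2 fold change -4.33, SE 0.92, DESeq2 adjusted p = 0.000227). Ftx, from the X inactivation centre, stood at 24 and 14.9 against 5.35 and 3.82 CPM, and Neat1, the scaffold of paraspeckles, at 84.4 and 26.9 against 21.5 and 4.36 CPM. All 5 were separate between the groups, as were 10 of the 12 list members that passed the filter, all lower. Of the 10 chosen in the MP libraries alone, 8 were lower and 0 higher, beside 17.9% and 16.5% of all genes so chosen. Xist could not be used, with raw counts of 3 and 19 in total and 0 and 4 in polysomal RNA.

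In MP cells the shares of the same list overlapped, at 0.0236% to 0.0255% in total RNA and 0.0206% to 0.0335% in polysomal RNA. Malat1 had a log2 fold change of 1.04 in MP. The difference between LSK and MP was -4.11 (SE 1.29, unadjusted p = 0.0103, adjusted p = 0.877 by edgeR), so it did not pass over all genes. In MP itself no gene passed for polysomal over total RNA (0 of 16426), and 7.57% had an unadjusted p under 0.05. No gene passed the test of the difference (0 of 16426, percent called 0), and 869 (5.29%) had an unadjusted p under 0.05. Of the 12 nuclear RNAs tested, 4 had an unadjusted p under 0.05 for the difference. DESeq2 called 1 gene in the test of the difference.

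Noncoding genes that host snoRNAs were lower as well, in LSK and in MP. These genes carry snoRNAs in their introns, and their spliced RNAs reach the cytoplasm, have short open reading frames and are known to be degraded when ribosomes terminate early. The 17 listed hosts took 0.103% and 0.126% of counts in total RNA and 0.0376% and 0.0249% in polysomal RNA, a ratio of 3.66 with no overlap. In MP they took 0.0661% to 0.0716% and 0.0218% to 0.0348%, also with no overlap. Gas5 (chr1:161034422-161038539), which carries several C/D snoRNAs, stood at 495 and 496 CPM in total RNA and at 187 and 122 CPM in polysomal RNA. Its total libraries were alike and both polysomal libraries lay below them, with a log2 fold change of -1.68 (SE 0.46, adjusted p = 0.224 by edgeR, 0.0349 by DESeq2). In MP the log2 fold change of Gas5 was -1.01, and the difference of -0.67 between the populations had an unadjusted p of 0.296 by edgeR. Snhg1 stood at 67 and 72.3 CPM in total and 29.8 and 18.3 CPM in polysomal RNA, and Snhg5 at 56 and 69.5 against 26.8 and 16.5 CPM. Snhg8 stood at 22.8 and 29.2 against 10.5 and 8.22 CPM, Snhg12 at 12.7 and 26.3 against 8.07 and 5.03 CPM, and Snhg20 at 15.5 and 33.1 against 0.83 and 3.74 CPM. Each of these had both polysomal libraries below both total libraries, as had 14 of the 16 hosts tested, with 0 above. The median log2 fold change of the 16 was -1.58 beside 0.02 over all genes tested. Of the 15 hosts chosen in the MP libraries alone, 13 lay lower in LSK polysomal RNA and 0 higher, beside 17.9% and 16.5% of all genes so chosen. DESeq2 also called Snhg20 (adjusted p = 0.0128) and Dancr (adjusted p = 0.0293).

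Several hosts have a run of pyrimidines near the annotated start. Such a run at the very start is the feature of the 5′ terminal oligopyrimidine messages (TOP messages). These encode ribosomal proteins and follow the growth-sensing kinase mTOR. The stretches around annotated starts are shown so that the place of the run can be read. They hold 30 bases before and 30 from the start, from the RefSeq promoter table on GRCm38.p6. Relative to the start the run begins at 4 in Snhg1, 7 in Snhg5, -3 in Snhg12 and -1 in Gas5 and Snhg8. Capitals mark a run of 5 or more C or T in a row that begins within 10 bases of the start, on the strand of the gene.
Gas5: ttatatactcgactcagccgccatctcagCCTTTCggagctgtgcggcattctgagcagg
Snhg1: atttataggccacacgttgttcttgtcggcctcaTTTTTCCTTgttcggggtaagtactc
Snhg5: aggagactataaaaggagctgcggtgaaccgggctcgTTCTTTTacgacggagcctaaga
Snhg8: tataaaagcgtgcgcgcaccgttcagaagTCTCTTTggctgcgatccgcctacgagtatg
Snhg12: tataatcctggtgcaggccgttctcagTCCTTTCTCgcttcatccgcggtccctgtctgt
Snhg20: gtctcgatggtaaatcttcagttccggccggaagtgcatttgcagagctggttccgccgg
The windows are chr1:161035136-161035195 for Gas5, chr19:8723457-8723516 for Snhg1, chr9:88522868-88522927 (minus strand) for Snhg5, chr3:123508307-123508366 (minus strand) for Snhg8, chr4:132308648-132308707 for Snhg12 and chr11:117076753-117076812 for Snhg20. Snhg20 is shown as a host with no such run, and Gas5 has another annotated start without one. The table matched 13 of the 16 hosts with 16 starts, and 12 of these (75%) had a run, beside 38% of all 32851 starts in the table and 54.1% of 74 starts of ribosomal protein genes. The run is a match of letters and no test was made.

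Genes of the class TEC took 0.0877% and 0.102% of counts in total RNA and 0.0148% and 0.011% in polysomal RNA, a ratio of 7.38, and 0.0298% to 0.0326% against 0.00841% to 0.018% in MP. Of the 191 TEC genes chosen in the MP libraries alone, 142 (74.3%) lay lower in both LSK polysomal libraries and 3 (1.57%) higher. Among all genes so chosen 17.9% were lower and 16.5% higher. TEC gene B130021K23Rik stood at 5.02 and 2.89 CPM in total RNA and at 0 in both polysomal libraries. The median log2 fold change of the 465 TEC genes tested was -4.26, and -3.48 when genes with no count in a group were set to a floor of 3 counts over that group. Without polysomal 1 the median was -6.56. Sense intronic transcripts took 0.0339% and 0.019% in total and 0.0101% and 0.006% in polysomal RNA, a ratio of 3.29. TEC and sense intronic models overlap introns of other genes in many cases, and the strand setting of the counting is not given in the sources used here. Unspliced RNA of the surrounding gene therefore cannot be told apart from these transcripts.

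Antisense genes took 0.171% and 0.172% of counts in total RNA and 0.0871% and 0.0754% in polysomal RNA, a ratio of 2.11. Their median log2 fold change was -1.30 over 473 genes tested, many of which could pass only through the total libraries, and -2.38 without polysomal 1. Over the 303 chosen in the MP libraries alone it was -0.93, with 147 (48.5%) separate and lower and 13 (4.29%) higher. Among all genes so chosen 17.9% were lower and 16.5% higher. Only 18 antisense genes averaged at least 10 CPM, with a median of -0.03, 6 lower and 2 higher. At that level 10.9% of all genes were lower and 20.6% higher. Long intergenic RNAs (lincRNAs) took 0.355% and 0.853% in total and 0.173% and 0.105% in polysomal RNA, with a median of -0.93 over 399 genes (-1.90 without polysomal 1). Of the 284 chosen in the MP libraries alone, 129 (45.4%) were separate and lower and 16 (5.63%) higher. Much of the larger value was the single gene Gm26917, with raw counts of 5045 and 145665 in total and 17 and 209 in polysomal RNA. Gm26917 is annotated at chr17:39843013-39846341. Without it the lincRNA share was 0.338% and 0.372% in total and 0.173% and 0.105% in polysomal RNA, a ratio of 2.56 in place of 4.34. With Gm26917 kept, the ratio was 2.55 without total 2. Rn18s-rs5, a gene name for an 18S ribosomal RNA sequence, stood at 3169 and 6722 CPM in total and 2195 and 2322 CPM in polysomal RNA. Among other long noncoding RNAs, Mir99ahg, a host of microRNAs, stood at 16.6 and 11.6 CPM in total and 1.53 and 0.54 CPM in polysomal RNA (log2 fold change -3.76, SE 0.75, DESeq2 adjusted p = 0.000227). Dleu2, another host of microRNAs, stood at 11.4 and 10.3 against 2.69 and 0.997 CPM. Gdap10 stood at 28.4 and 6.33 CPM in total and 0.299 and 0 CPM in polysomal RNA. Genes annotated as microRNAs overlapped in their summed share, with 0.0219% and 0.0819% of counts in total and 0.0145% and 0.0776% in polysomal RNA. Of 17 tested, 6 (35.3%) were separate and lower and 0 higher, beside 20.6% and 16.2% of all genes tested. Of 11 chosen in the MP libraries alone 2 (18.2%) were lower, near the 17.9% of all genes so chosen. The smaller set picked by microRNA symbol did not overlap, at 0.00367% and 0.007% in total and 0.00156% and 0.00132% in polysomal RNA. In that set 4 of 6 tested were lower and 0 higher. Of 8 other cytoplasmic or unplaced long noncoding RNAs, 3 (37.5%) were separate and lower and 1 (12.5%) higher.

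Processed pseudogenes, copies of spliced messages put back into the genome, differed less. They took 0.238% and 0.333% of counts in total RNA and 0.248% and 0.136% in polysomal RNA, so the groups overlapped. Their reads may come from the parent messages, because near-identical copies share reads. Protein-coding genes took 97.7% and 95.8% of counts in total RNA and 98.4% and 98.3% in polysomal RNA. Their median log2 fold change was 0.18 over 13136 tested with 2433 separate and higher and 1817 lower, and -0.21 with 1377 higher and 2834 lower under library totals alone.

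**Figure D2:**
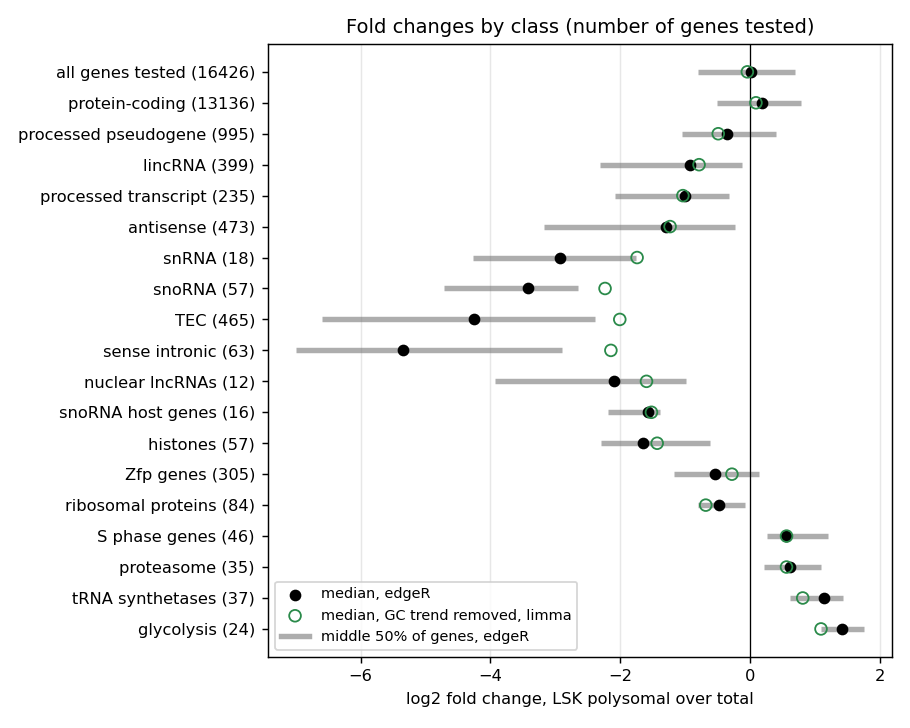
Log2 fold change of LSK polysomal over total RNA by class and gene list, with black points for the edgeR median, grey bars for the middle 50% of the genes and green rings for the median after a trend by GC content was removed from each library and limma was fitted. Noncoding classes lie left of 0 and of the lists drawn glycolysis lies farthest right, with a median of 1.42, or 1.09 after the GC trend was removed.

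Among protein-coding genes, the lists of glycolysis, tRNA synthetases, proteasome subunits and S phase had a larger share of separate higher members than all genes, and ribosomal proteins had a larger share of lower ones. The same held beside genes averaging at least 10 CPM, of which 20.6% were higher and 10.9% lower. The 24 genes of glycolysis, the breakdown of glucose to pyruvate, took 0.921% and 0.634% of counts in total RNA and 1.26% and 2.01% in polysomal RNA. In 16 of 24 both polysomal libraries lay above both total libraries, beside 16.2% of all genes, and in 0 below. The median was 1.42, with 0.87 without polysomal 2, 2.13 without total 1 and 0.53 without both LSK libraries numbered 2. Tpi1 (chr6:124810586-124814296), which interconverts the triose phosphates, stood at 628 and 334 CPM in total RNA and at 1431 and 2071 CPM in polysomal RNA. Its groups did not overlap, and the log2 fold change was 1.86 (SE 0.49, adjusted p = 0.217 by edgeR, 0.0528 by DESeq2). Aldoc, an aldolase, stood at 11.3 and 9.4 against 40.4 and 49.3 CPM and was called by DESeq2 (adjusted p = 0.00515). Eno1, an enolase, stood at 529 and 337 CPM in total and 1006 and 2127 CPM in polysomal RNA, and Ldha, which makes lactate, at 1424 and 1284 against 3035 and 3891 CPM. In MP the list's median was 0.30 and its shares overlapped, at 0.924% to 1.34% in total and 1.07% to 1.32% in polysomal RNA. The difference for Tpi1 between LSK and MP was 1.46 (SE 0.64, unadjusted p = 0.0471, adjusted p = 0.877 by edgeR).

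Aminoacyl-tRNA synthetases, which load amino acids onto tRNAs, took 0.58% and 0.469% of counts in total RNA and 0.838% and 1.05% in polysomal RNA. In MP they took 0.644% to 0.668% in total and 0.865% to 0.98% in polysomal RNA, so the groups were separate in both populations. Of 37 genes, 12 (32.4%) were separate and higher and 0 lower in LSK. All 37 averaged at least 10 CPM, where 20.6% of all genes were higher and 10.9% lower. The median was 1.13 (0.75 without polysomal 2, 0.56 without both LSK libraries numbered 2). Under library totals alone 10 were higher and 2 lower, with a median of 0.795. Sars, the seryl-tRNA synthetase, stood at 158 and 92.8 CPM in total and 387 and 536 CPM in polysomal RNA (log2 fold change 1.88, SE 0.48, adjusted p = 0.217 by edgeR, 0.0325 by DESeq2). Aars, the alanyl-tRNA synthetase, stood at 167 and 109.9 against 231 and 639.6 CPM. Subunits of the proteasome, which degrades tagged proteins, took 0.907% and 0.899% in total and 1.22% and 1.06% in polysomal RNA, with 18 of 35 separate and higher, 1 lower and a median of 0.62. Under library totals alone 7 were higher and 1 lower, with a median of 0.26. Psmc5, an ATPase of its cap, stood at 174 and 80.9 CPM in total and 446 and 418 CPM in polysomal RNA, and Psmd13 at 199 and 37.6 against 468 and 527 CPM. S phase genes, which copy DNA, had 20 of 46 (43.5%) separate and higher and 2 lower, or 11 higher and 2 lower under library totals alone. All 35 proteasome and all 46 S phase genes also averaged at least 10 CPM. Mcm7, a subunit of the replicative helicase, stood at 685 and 287 CPM in total and 1342 and 2132 CPM in polysomal RNA, and Lig1, which joins DNA ends, at 300.5 and 168 against 666 and 702 CPM. Cct7, of the chaperonin that folds actin and tubulin, stood at 649 and 448 against 1478 and 1966 CPM.

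Ribosomal protein messages lay on the other side. The 84 genes took 3.26% and 4.85% of counts in total RNA and 3.18% and 2.19% in polysomal RNA, so that polysomal 1 lay just under total 1. In 37 of 84 (44%) both polysomal libraries lay below both total libraries and in 2 above, beside 20.6% and 16.2% of all genes. The median was -0.48 (-0.85 under library totals alone). In MP the shares were 3.7% to 4.72% in total and 1.64% to 2.65% in polysomal RNA. Rplp2, of the ribosomal stalk, stood at 219 and 359 CPM in total and 100.5 and 137 CPM in polysomal RNA, and Rpl36 at 194 and 215 against 60.9 and 115 CPM. The median of all 84 was -0.84 without polysomal 1, -0.28 without polysomal 2, -0.22 without total 2 and -0.08 without both LSK libraries numbered 2. Elongation factors and other TOP messages did not share this pattern, with 7 of 22 separate and higher, 1 lower and a median of 0.03, which was -0.36 under library totals alone. Eef2, which moves the ribosome along the message, stood at 1603 and 915 CPM in total and 2872 and 5082 CPM in polysomal RNA (log2 fold change 1.66, SE 0.49, adjusted p = 0.231 by edgeR). Eef1a1, which brings tRNAs to the ribosome, stood at 4318 and 5264 against 6338 and 3824 CPM and overlapped between the groups. Protein-coding genes averaging at least 10 CPM were also put into 10 groups by coding length. The shortest group (895 genes, median 405 bases) had a median log2 fold change of -0.05, and the other 9 had medians from 0.15 to 0.41 with no steady rise, the longest standing at 0.32 (-0.27 without polysomal 1). Of the shortest group 18.1% were separate and higher and 21.8% lower, beside 20.6% and 10.9% of all genes at that level.

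Among single genes, leaving out clones and predicted models, the 10 lower and 10 higher genes with the smallest p were named by rule among separate genes that reached 10 CPM in the group where they were higher, and none passed in edgeR. Mdm2 (chr10:117688875-117710758), which marks p53 for degradation, stood at 49.3 and 98.3 CPM in total RNA and at 7.11 and 5.77 CPM in polysomal RNA. Its log2 fold change was -3.52 (SE 0.59, adjusted p = 0.212 by edgeR, 3.09e-07 by DESeq2). Prpf39, a splicing factor of the U1 particle, stood at 117 and 79.8 against 11.4 and 4.94 CPM (DESeq2 adjusted p = 2.63e-05). In MP its log2 fold change was 0.69, and the difference of -4.28 (SE 0.87) had an unadjusted p of 0.000695 and an adjusted p of 0.877 by edgeR. Ppp1r15a, which returns protein synthesis to normal after stress and has upstream open reading frames, stood at 96.1 and 202 CPM in total and 25.6 and 20.8 CPM in polysomal RNA. Zfp46 stood at 16 and 14.6 against 2.29 and 0.789 CPM, Ccdc34 at 19.5 and 55.4 against 5.48 and 3.9 CPM, and Pcgf3, a Polycomb subunit, at 49.3 and 35.2 against 8.77 and 4.61 CPM. Hist1h2bg, a replication-dependent histone, stood at 10.1 and 19.9 against 1.73 and 1.33 CPM. Mir99ahg, Firre and Gdap10, given with the noncoding RNAs, complete the 10. DESeq2 called all 10 lower genes.

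The higher genes by the same rule included Sorl1 (chr9:41964720-42124297), a sorting receptor of endosomes, at 6.01 and 6.93 CPM in total RNA and 49.3 and 41.6 CPM in polysomal RNA. The log2 fold change was 2.81 (SE 0.51, adjusted p = 0.212 by edgeR, 5.58e-05 by DESeq2). Exosc7, of the RNA-degrading exosome, stood at 114 and 72.3 against 301 and 379 CPM, and Mthfd1l, of mitochondrial folate metabolism, at 38.8 and 31.3 against 121 and 307 CPM. Neurl4 stood at 8.28 and 8 against 24.6 and 47.3 CPM, Kdm3b, a histone demethylase, at 84.2 and 48.3 against 235 and 244 CPM, and Slc38a5, a glutamine transporter, at 8.98 and 9.08 against 29.6 and 28.4 CPM. Aldoc and Sars are described with their pathways. Ighg1, a constant segment of secreted antibody, and C1qa, a complement gene of macrophages, complete the 10 and are markers of other cells. Ighg1 had raw counts of 1 and 4 in total and 242 and 4227 in polysomal RNA, and C1qa stood at 1.14 and 0.349 against 6.38 and 15.5 CPM.

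Sums of macrophage and neutrophil markers were higher in the polysomal libraries, as were those of most other marker lists, stem cell genes included. The 20 macrophage markers, none of them at 0 in a total library, summed to 491 and 594 CPM in total RNA and to 822 and 1307 CPM in polysomal RNA. Of these, 17 of 20 were separate and higher, beside 16.2% of all genes, with a median of 1.88. Most were at low levels: 8 averaged at least 10 CPM, with 6 higher and a median of 1.09, beside 20.6% of all genes at that level. Of 18 chosen in the MP libraries alone, 15 were higher, beside 16.5% of all genes so chosen. Vcam1, an adhesion molecule of macrophages and stroma, stood at 8.69 and 3.64 against 58.4 and 21.2 CPM. The 24 neutrophil markers summed to 1518 and 1033 CPM in total and to 3912 and 2627 CPM in polysomal RNA. Of 23 tested, 15 were separate and higher and 1 lower. Stem cell genes summed to 7527 and 5624 against 9155 and 8071 CPM, and T and NK cell markers to 405 and 391 against 655 and 743 CPM. Erythroid genes summed to 3056 and 3581 against 4979 and 3905 CPM, and megakaryocyte markers to 1324 and 1111 against 1493 and 1858 CPM. B and plasma cell markers summed to 649 and 4877 CPM in total and 924 and 3476 CPM in polysomal RNA, which overlapped. Stroma and endothelium markers overlapped as well. How far other cells took part in the higher genes was not tested, and in bulk RNA fewer cells of a type and less RNA per cell cannot be told apart.

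**Figure D3:**
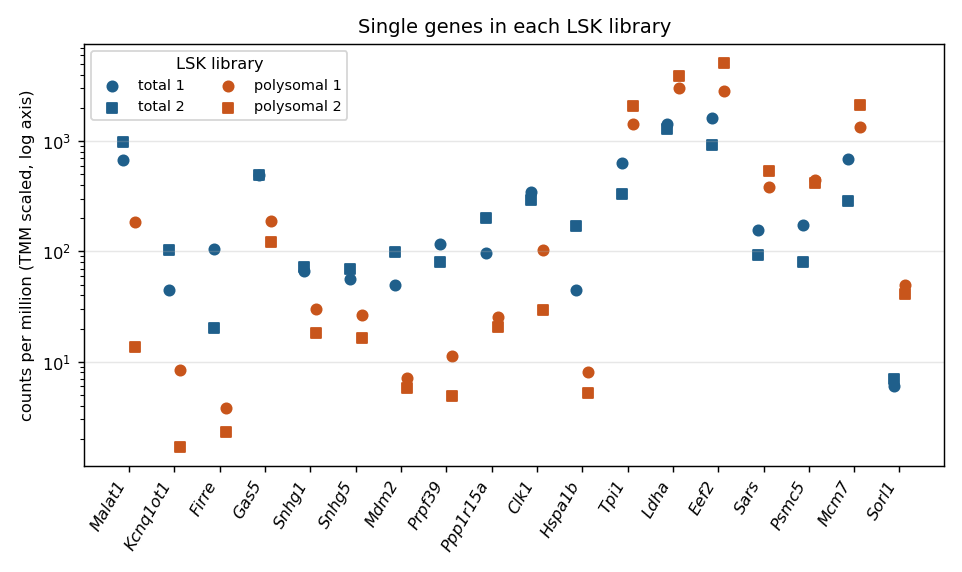
Level in CPM (TMM scaled, log axis) of 18 genes in the 4 LSK libraries, with total libraries in blue, polysomal libraries in orange, circles for library 1 and squares for library 2. In each gene shown the 2 groups do not overlap: Malat1 to Hspa1b are lower and Tpi1 to Sorl1 higher in polysomal RNA, and polysomal 2 lies far below polysomal 1 for Malat1 and Kcnq1ot1.

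The Zfp list had a larger share of separate lower members than all genes. The splicing list did so only beside genes averaging at least 10 CPM. Of 73 genes of the spliceosome and its regulators, 14 were separate and lower and 10 higher, and the median was 0.00. These counts were 19.2% and 13.7%, near the 20.6% and 16.2% of all genes tested. However, 72 of the 73 averaged at least 10 CPM, with the same 14 lower and 10 higher. At that level 10.9% of all genes were lower and 20.6% higher. Single members, chosen after their values were seen, differed in direction. Clk1, a kinase of splicing factors whose own message is known to be kept in part unspliced in the nucleus, stood at 347 and 295 CPM in total and 104 and 29.7 CPM in polysomal RNA (log2 fold change -2.26, SE 0.67, adjusted p = 0.234 by edgeR, 0.0513 by DESeq2). Luc7l3 stood at 112 and 97 against 42.6 and 25.3 CPM and Srsf10 at 205 and 194 against 87.3 and 47.2 CPM, while Ddx17, a helicase, was higher at 46.3 and 83.6 against 167 and 179 CPM. In MP the log2 fold change of Clk1 was 0.85, and the difference of -3.11 (SE 0.90) had an unadjusted p of 0.00671 and an adjusted p of 0.877 by edgeR. Zfp genes encode zinc finger proteins, many of which are DNA-binding repressors. They took 1.11% and 0.949% of counts in total and 0.785% and 0.489% in polysomal RNA. Of 305 tested, 83 (27.2%) were separate and lower and 8 higher, with a median of -0.54. Under library totals alone 123 were lower and 1 higher. Zfp942 stood at 49.7 and 30.5 CPM in total and 6.84 and 4.78 CPM in polysomal RNA, and DESeq2 called it (adjusted p = 0.00256). In MP the median of the Zfp list was 0.55. By edgeR 75 of the 305 had an unadjusted p under 0.05 for the difference between the populations, beside 5.29% of all genes. In LSK the median of the Zfp list was -1.51 without polysomal 1, -0.14 without total 1 and -0.28 after the GC trend was removed.

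Stress genes went in both directions, with more separate members higher than lower. Of all genes tested 16.2% were separate and higher and 20.6% lower, and of those averaging at least 10 CPM 20.6% and 10.9%. Of 27 cytosolic heat shock and chaperonin genes, 8 (29.6%) were separate and higher and 4 (14.8%) lower, with a median of 0.03. Among the lower ones Hspa1b, an inducible chaperone, stood at 45 and 171 against 8.07 and 5.19 CPM, and its neighbour in sequence Hspa1a at 18.6 and 69.9 against 3.49 and 4.03 CPM. These near-identical copies share reads. Of 25 genes of the integrated stress response or with known upstream reading frames, 7 (28%) were separate and higher and 4 (16%) lower. Phgdh, of serine synthesis, stood at 422 and 219 against 788 and 1695 CPM, and Asns, which makes asparagine, at 38.5 and 51.2 against 108 and 118 CPM, so both were separate and higher. Replication-dependent histones had 19 of 57 tested (33.3%) separate and lower and 1 higher, and share reads among near-identical copies. Only 8 averaged at least 10 CPM, with 2 lower and 1 higher. Their messages lack a poly(A) tail, and their summed shares overlapped, at 0.0296% and 0.0667% in total and 0.016% and 0.0351% in polysomal RNA.

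Stem cell genes did not exceed the shares of all genes in either direction, which were 16.2% separate and higher and 20.6% lower. Among genes averaging at least 10 CPM those shares were 20.6% and 10.9%. Of 40 genes that mark or maintain blood stem cells, 6 were separate and higher (15%) and 2 lower (5%), with a median of 0.13. Mecom, a transcription factor of stem cells, stood at 92.4 and 42.6 CPM in total RNA and 82 and 27.8 CPM in polysomal RNA. Of 37 translation initiation factors 8 were higher (21.6%) and 4 lower (10.8%), with a median of 0.07. Of 78 nuclear-encoded subunits of the respiratory chain 19 were higher (24.4%) and 17 lower (21.8%). Genes of mitosis had 5 of 45 (11.1%) in either direction, and a median of 0.02 in LSK beside 1.21 in MP. For the difference 8 of 45 had an unadjusted p under 0.05 by edgeR, beside 5.29% of all genes.

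Base composition set the polysomal libraries apart from each other. Protein-coding genes were ordered by the GC content of their transcripts and put into 10 groups of equal size. The median log2 fold change went from -0.67 in the group of lowest GC (median 40.26%) to 0.56 in the group of highest GC (59.96%). With polysomal 2 alone against the total libraries it went from -1.74 to 1.10, and with polysomal 1 alone from -0.17 to -1.20. In MP it went from 0.77 to -0.54. The trend by GC therefore had its direction from polysomal 2, and polysomal 1 went the other way at the high end. The total libraries differed by GC as well. From the lowest to the highest group the median deviation of the genes went from 0.49 to -0.46 in total 1 and from 0.27 to 0.33 in total 2. It went from 0.26 to -0.78 in polysomal 1 and from -0.96 to 1.105 in polysomal 2. After the trend was removed from each library, limma called 1 gene (higher in polysomal RNA) in place of 254 on the same genes, while the medians of glycolysis (1.09), tRNA synthetases (0.81), snoRNA hosts (-1.52), TEC genes (-2.01) and snoRNAs (-2.24) kept their sign.

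**Figure D4:**
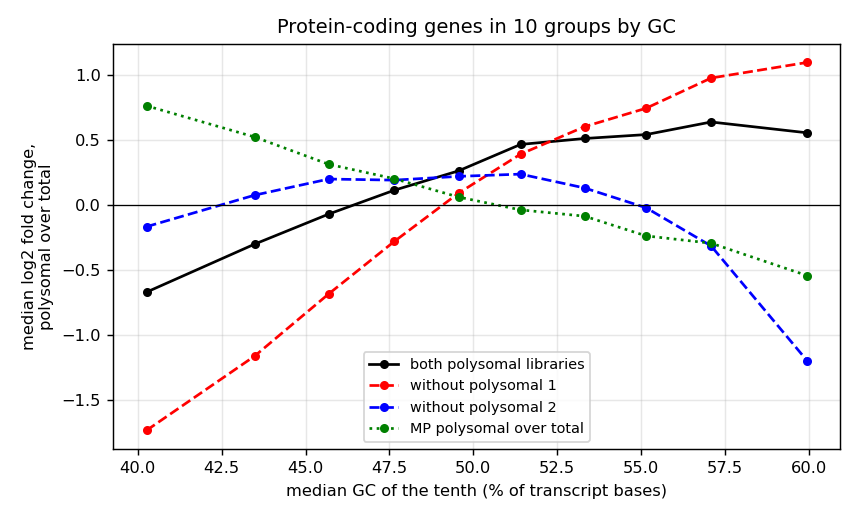
Median log2 fold change of polysomal over total RNA for protein-coding genes in 10 groups by GC content of the transcript, for both LSK polysomal libraries (black), without polysomal 1 (red dashes), without polysomal 2 (blue dashes) and for MP (green dots). The red line rises from -1.74 to 1.10, whereas the blue line ends at -1.20 and the MP line falls from 0.77 to -0.54.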

How the data were processed

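RNA of 9 libraries in 4 groups was compared, with groups and library numbers taken from the titles. The authors deposited raw counts per gene symbol. The tools listed in the submitters' processing notes are STAR, featureCounts, bcl2fastq and DESeq2, with the builds GRCm38 and mm10. No source used here gives the annotation or whether counting used strand. The authors also deposited normalized values on a log2-like scale, used only as an alternative. Per the labels' protocols, a SMARTer kit amplified the Trizol-extracted RNA.

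Counts were fitted in R 4.3.3 with edgeR 4.0.16 (quasi-likelihood, 1 mean per group, all 9 libraries, TMM). The filter was filterByExpr with a minimum count of 10 and a minimum total of 15. Tests were two-sided, with Benjamini-Hochberg adjustment over all genes and a threshold of 0.05. DESeq2 1.42.0 and limma 3.58.1 were alternatives. Only the edgeR procedure was run on simulated counts with known changes. At the spread of these libraries it called 0 of 100 genes changed by a log2 fold of 2. Of 100 genes changed by a log2 fold of 4 it called 23, with 0 calls among unchanged genes. RNA classes are GENCODE M21 biotypes on GRCm38, matched by symbol, and unmatched symbols held 0.667% of counts. Date-like names numbered 27, and the table has no genes of the mitochondrial genome. Class shares are counts over the library total, with exact Clopper-Pearson intervals at 95%, and PCR reads are not independent molecules.

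The members, gene lists and tests were chosen with earlier results of these data known. Genes were named by a rule: the 10 with the smallest p in each direction among separate genes that reached 10 CPM in the group where they were higher, leaving out predicted models and clones (none passed the adjusted threshold), up to 4 per list or class with the smallest p, and a fixed set that includes Malat1, Gas5 and Tpi1. Other named members of lists were chosen after their values were seen.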

Additional observations from a re-analysis of the deposited data

How the results depend on the processing

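The number of genes called between LSK polysomal and total RNA was 0 in edgeR with TMM, with RLE factors (1946 at an unadjusted p under 0.05), with library totals (2116), with a mean of at least 10 CPM (648) and with only the 4 LSK libraries (972). It was 547 with no filter on low counts (73 higher, 474 lower), 433 with DESeq2, 486 with limma on the authors' values (8 higher, 478 lower), 254 with limma on log2 CPM and 1 with limma once the GC trend was removed. Leaving out any 1 library gave 0 to 0 calls. The test of the difference between LSK and MP called 0 genes, 4 with no filter and 1 with DESeq2. The cause of these differences was not tested.

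Same-numbered LSK libraries deviated together (r = 0.48 over genes), but the labels give only a shared number and LSK has 2 such pairs, so the samples were not treated as paired. With the number as a replicate block, 0 genes were called over all 9 libraries (2370 at an unadjusted p under 0.05) and 254 in the 4 LSK libraries alone (17 higher, 237 lower). The median log2 fold change of antisense genes was -1.45 and that of TEC genes -4.49 with the replicate block in all libraries, and TEC stood at -4.58 in the 4 LSK libraries alone.

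Class medians moved with the scaling, the filter and the library. Under library totals they were -0.21 for protein-coding, -1.31 for lincRNA, -1.68 for antisense, -4.63 for TEC and 0.26 for proteasome genes. With no filter they were 0 for protein-coding, -0.66 for lincRNA, -2.07 for antisense and -2.94 for TEC genes. At a mean of at least 10 CPM they were -0.22 for antisense, -8.27 for TEC and 0.44 for proteasome genes, and with only the 4 LSK libraries antisense stood at -1.14. The authors' values gave -0.58 for lincRNA, -0.70 for antisense and -1.48 for TEC genes. TEC stood at -2.01 with the GC trend removed and at -2.96 in the same limma fit with it kept. Alternatives added after seeing the data were the limma fit with the GC trend kept, genes chosen in the MP libraries only (lincRNA -0.76, antisense -0.93, TEC -3.47), leaving out both LSK libraries numbered 2 (antisense -1.53, TEC -3.82) and class shares without each LSK library. The antisense share ratio was 1.75 with classes by symbol in place of biotype.

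Leaving out 1 library at a time, medians ranged from -0.060 to 0.25 for protein-coding, -1.90 to -0.91 for lincRNA, -2.38 to -1.27 for antisense, -6.56 to -4.27 for TEC, 0.44 to 0.77 for proteasome and -1.51 to -0.14 for Zfp genes. The ratio of total to polysomal share ranged from 6.83 to 25.8 for snoRNAs, 5.88 to 22.3 for snRNAs, 4.44 to 19.3 for nuclear long noncoding RNAs and 2.55 to 6.13 for lincRNAs. The low counts of small RNAs in polysomal 2 (105 for snoRNAs, 43 for snRNAs) limit those ratios.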
